A study of Mus musculus with 2 samples.

Results

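On promoter arrays, 229 short stretches of DNA that is not rich in G and C were enriched in a Tcf3 chromatin immunoprecipitate from mouse embryonic stem cells. They were selected on the measured values. Each holds at least 3 neighbouring array probes whose x, the log2 ratio of immunoprecipitate over input with the median of the array set to 0, is 1.2 or more (2.30-fold), with steps of at most 1000 bp between probe midpoints and a mean G+C of the run's probes under 50%. They are called lower-GC runs here. They make up 229 of the 1017 runs that met the enrichment rule, and the other 788 had a mean G+C of 50% or more. Of the lower-GC runs, 168 lay on array 1 and 61 on array 2, and 747 probes formed them.

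The chromatin came from E14, a mouse embryonic stem cell line, grown without feeder cells. It was fragmented to a mean of 500 bp. Immunoprecipitated DNA carried the dye Cy5 and input DNA the dye Cy3 on 2 Agilent promoter arrays. Both groups are E14 cells, for which the labels name no further allele, treatment or time. The labels list several antibodies without saying which one the arrays received, so Tcf3 is taken from the sample titles. The arrays carry different probes and are not replicates. Each stretch was therefore measured once, with no control immunoprecipitation, no test between groups is possible, and an SD below is the scatter among neighbouring probes of a run.

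Tcf3, now named Tcf7l1, belongs to the Tcf/Lef family, whose members bind DNA through an HMG box and act at the end of the Wnt pathway. Without Wnt signal these factors hold target genes down together with Groucho (Tle) corepressors, and with it beta-catenin joins them. The core of the Tcf/Lef site is CTTTGAT or CTTTGAA. In embryonic stem cells Tcf7l1 is known to share many target regions with the POU factor Pou5f1 (Oct4) and the HMG-box factor Sox2. POU factors bind the octamer ATTTGCAT, of which ATGCAAA is a 7-letter piece on the other strand.

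The letters of the most enriched probe are shown for 12 runs, chosen from those with the highest mean x, with the most CTTTGAT or named for a developmental gene. They are printed as in the deposited probe annotation. Capitals mark CTTTGAT or the related CTTTGAA, and likewise ATGCAAA (with the last octamer letter where present) or the related ATTAGCAT, a string that differs from the octamer by 1 letter, on either strand.
Grsf1: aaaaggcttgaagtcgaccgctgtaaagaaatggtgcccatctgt
Mllt6: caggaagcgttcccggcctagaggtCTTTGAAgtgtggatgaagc
Gbx2: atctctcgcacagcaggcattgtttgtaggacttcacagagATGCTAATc
Klf2: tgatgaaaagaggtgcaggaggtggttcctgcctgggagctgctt
Uhrf2: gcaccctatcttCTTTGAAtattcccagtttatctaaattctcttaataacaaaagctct
Trim28: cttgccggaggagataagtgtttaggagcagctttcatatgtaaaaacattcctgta
Pdpn: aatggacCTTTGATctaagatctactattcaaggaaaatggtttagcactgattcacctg
Tcf7l1: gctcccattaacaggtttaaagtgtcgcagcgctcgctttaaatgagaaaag
Fgf4: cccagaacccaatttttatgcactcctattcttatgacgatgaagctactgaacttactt
Nodal: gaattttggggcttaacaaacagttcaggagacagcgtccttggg
Pax6: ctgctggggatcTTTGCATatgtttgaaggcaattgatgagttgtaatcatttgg
Spred1: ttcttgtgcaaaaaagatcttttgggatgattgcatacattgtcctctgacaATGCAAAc
Among these 12 probes, those of Mllt6 and Uhrf2 hold CTTTGAA, that of Pdpn holds CTTTGAT, those of Pax6 and Spred1 hold ATGCAAA and that of Gbx2 holds ATTAGCAT. The probes of Grsf1, Klf2, Trim28, Tcf7l1, Fgf4 and Nodal hold none of these strings, which says only that they are not in these windows. The 12 are picked examples and do not give the share of runs with a string. Over the highest probes of all 229 runs, CTTTGAA was in 3.93%, CTTTGAT in 2.18%, ATGCAAA in 5.24% and ATTAGCAT in 1.75%.

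The arrays measured 273079 of 456788 autosomal probes in both channels, 69.3% on array 1 and 49.5% on array 2. Among autosomal probes under 50% G+C the shares were 63.8% and 40.4%. At the other spots the scanner software had put a substitute value for at least one channel, and those spots were left out. Of the measured lower-GC probes, 8.06% on array 1 and 7.12% on array 2 reached 1.2. The runs were 0.429% of all stretches of 3 measured lower-GC probes on array 1 and 0.299% on array 2. The input signal of run probes had a median of 627 and the immunoprecipitate signal one of 1890. Other lower-GC probes had medians of 566 and 415.

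The runs were short and narrow. Of the 229, 188 had 3 probes, 29 had 4, 8 had 5 and 4 had 6 or more, with 8 as the highest number. They spanned a median of 530 bp, from 266 to 2083 bp. The mean x of a run had a median of 1.94 (3.83-fold) and ranged from 1.35 to 3.62 (2.55-fold to 12.3-fold). In the GC-rich runs the median was 1.93, so both kinds of run, cut at the same 1.2, had nearly the same height. Mean G+C had a median of 40.5% and ranged from 32.8% to 49.99%.

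**Figure D1:**
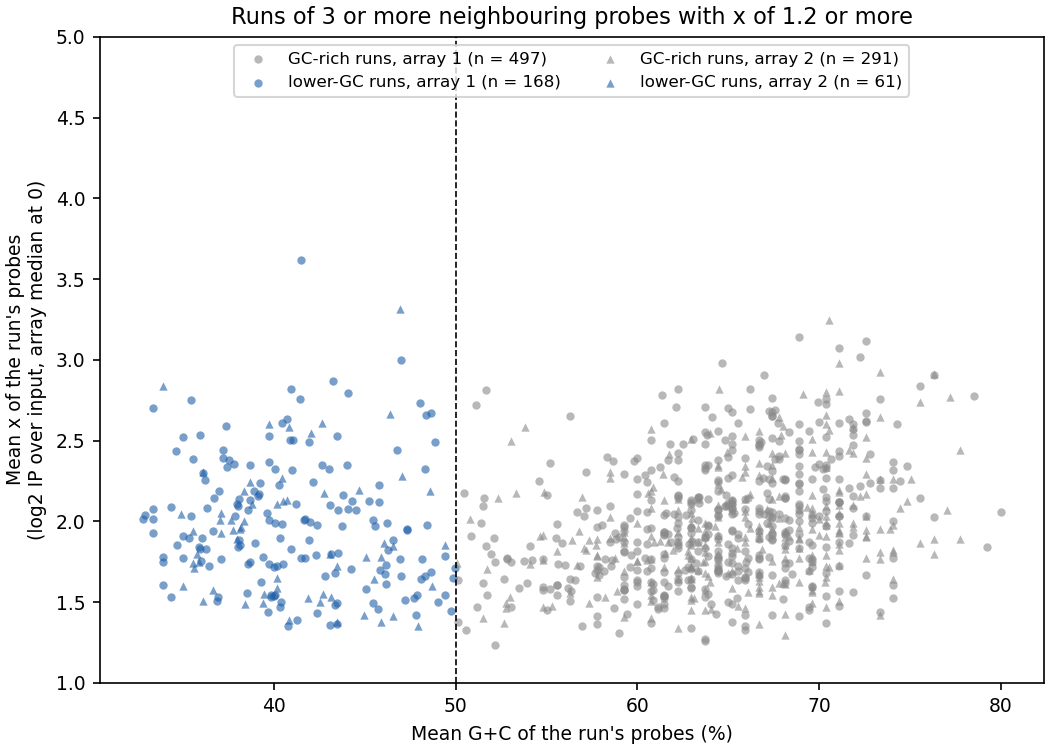
Mean x of every run (log2 of immunoprecipitate over input, array median at 0) against the mean G+C of its probes, by array. The 229 lower-GC runs, left of the dashed 50% line, reach 3.62, and the 788 GC-rich runs to its right reach 3.25.

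Enrichment fell off close to the highest probe. Part of this fall is set by the selection, since the reference is the maximum of each run and a probe below 1.2 ends it. The highest probe of a run had a median x of 2.42. Probes under 300 bp away had a median of 1.48, of which 74.5% belonged to the run itself. At 300 to 600 bp the median was 0.52, at 600 to 1000 bp 0.28, and at 2000 to 3000 bp 0.05. The GC-rich runs gave 2.48, 1.42, 0.61, 0.10 and -0.12 over the same distances. At each of these distances the medians of both kinds of run differed by less than the quartile range of either. That range is the spread of single probes and does not measure the precision of a median, so a difference was not tested.

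**Figure D2:**
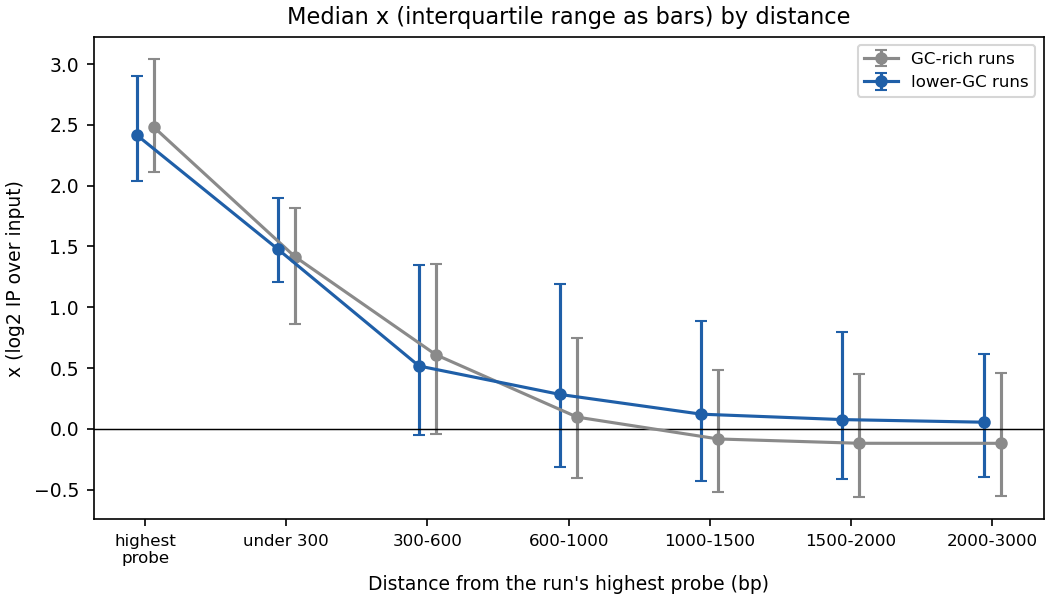
Median x by distance in bp from the highest probe of each run, for lower-GC runs and GC-rich runs, with bars from the lower to the upper quartile. Both medians drop from above 2.4 at the highest probe to below 0.7 at 300 to 600 bp.

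The run of highest mean x lay at Grsf1, which codes for an RNA-binding protein of mitochondrial RNA granules, at chr5:88619399-88620038. Its 5 probes read 2.14, 3.48, 4.09, 4.92 and 3.46 in order along the chromosome, with a mean of 3.62 ± 1.02 (SD over 5 probes). The values climb to a single summit at the fourth probe and the run holds no left-out spot. Coordinates are those of the array annotation, and their genome build was not given in any source used here. Mllt6, which codes for a partner of MLL in leukaemic fusions, came next with 2.29, 4.12, 2.97, 3.42 and 3.77 at chr11:97770772-97771605. Uhrf2, a ubiquitin ligase that reads modified DNA, gave 2.59, 3.26 and 2.65 at chr19:29728925-29729302. The lowest probe of the Uhrf2 run was thus higher than the lowest probe of any other lower-GC run. Its mean G+C of 33.9% was the lowest of the runs on array 2.

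The rest of the 15 runs of highest mean x came from genes of unlike function. Lrrn2 (2.82), a leucine-rich repeat membrane protein, Plcg2 (2.79), a phospholipase of immune signalling, and Casq2 (2.75), the calcium store protein of heart muscle, followed in the order of mean x. Dnaaf3 (2.75), an assembly factor of ciliary dynein, Pkia (2.73), an inhibitor of protein kinase A, and Hgfac (2.67), the protease that activates hepatocyte growth factor, were close behind. Ube2d1 (2.66), a ubiquitin-conjugating enzyme, and Pdgfa (2.66), a growth factor ligand, were also among them. The run shared by the olfactory receptor genes Olfr591 and Olfr592 had a mean x of 2.70 over 4 probes, but they spanned 2051 bp with 9 left-out spots between them.

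**Figure D3:**
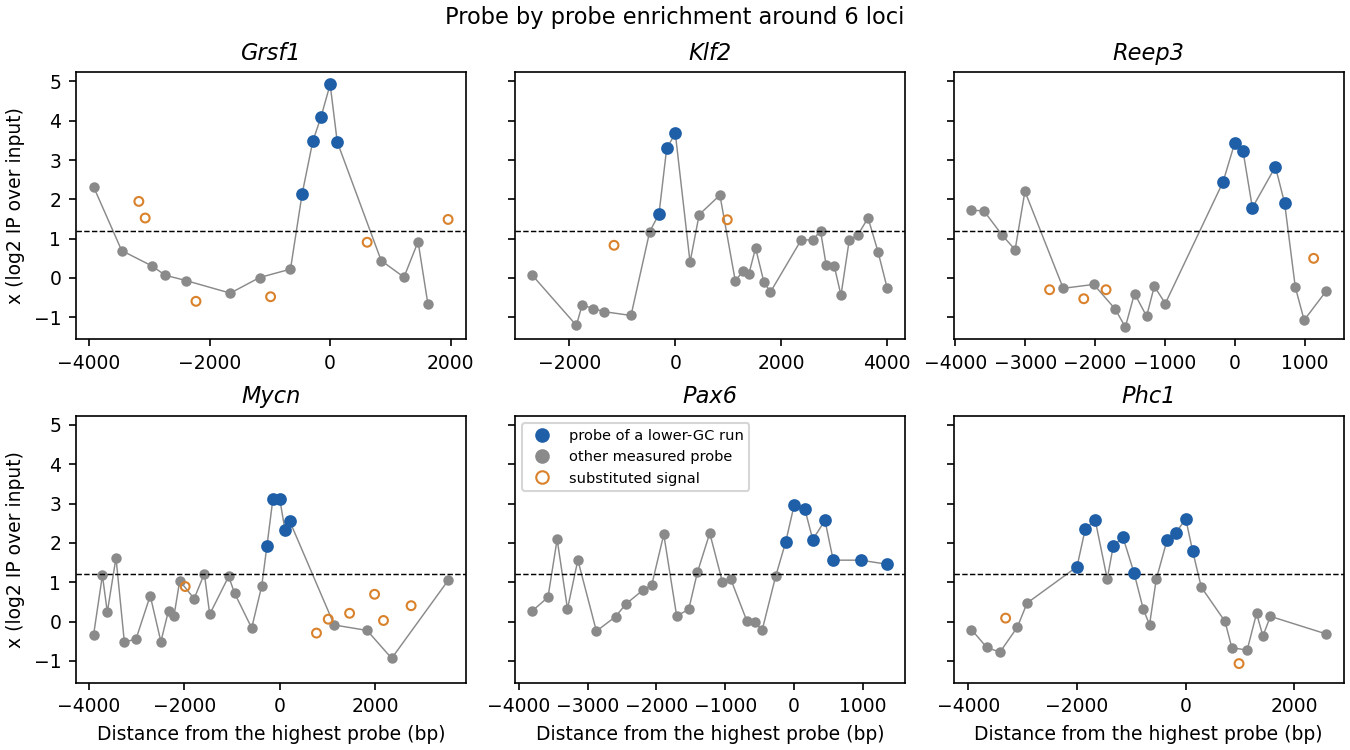
x of each probe against its distance in bp from the highest probe of a run at 6 genes. Filled blue points are probes of lower-GC runs, grey points other measured probes, open points spots with a substituted signal, and the dashed line is 1.2. Grsf1 peaks at 4.92, Pax6 stays above 1.4 over 8 probes, and Phc1 has 3 separate runs.

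Several runs were named for genes of the pluripotent state. Gbx2, a homeobox gene known as a target of LIF and Stat3 that sustains self-renewal, read 4.41, 2.41 and 2.18 at chr1:89840830-89841206. Klf2, a Krüppel-like factor of naive stem cells, read 1.63, 3.30 and 3.68 at chr8:70838916-70839276. Both runs are summits at 1 edge, with the highest probe first at Gbx2 and last at Klf2. The run named for both Zbtb45 and Trim28, a corepressor that silences retroelements, read 1.94, 3.24 and 2.72. At Trp53bp1, a DNA repair gene, the probes read 1.48, 2.77 and 3.57. Mycn, a Myc factor that drives growth of stem cells, had 5 probes at 1.92, 3.12, 3.12, 2.33 and 2.54, highest at the second and the third probe, over 538 bp at chr12:13005831-13006368.

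Sox2, the HMG-box partner of Pou5f1, had a run of 2.00, 2.91 and 1.87 at chr3:34453662-34453995. Il6st, the gp130 receptor chain through which LIF signals, had 1.73, 2.84, 2.30 and 1.55. Dppa5a, an RNA-binding stem cell marker, had 2.20, 2.25 and 1.22. In each the highest probe was an inner one. Tcl1, a cofactor of Akt, gave a mean x of 1.78 and the run shared by Tdgf1 (Cripto, the Nodal co-receptor) and Lrrc2 gave 1.55. Of the 50 genes on a pluripotency and stem cell list that had at least 3 neighbouring measured lower-GC probes, 12 were named by a run (24%). The background over all 14970 such genes was 237, or 1.58%. It was 2.13% on array 1 and 0.934% on array 2. The list was written with earlier results of these data known, so its share supports nothing by itself. The median of each list gene's highest mean over 3 probes was 1.37, against 0.59 for all genes. That contrast rests on the same list and the same x, so it is a description only.

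Phc1, a subunit of Polycomb repressive complex 1, was the only gene named by 3 runs, and the only locus where runs lay within 2000 bp of each other. The first of them by coordinate read 1.39, 2.36 and 2.57 and the next 1.92, 2.14 and 1.24. The last had 4 probes at 2.08, 2.26, 2.62 and 1.79. Together they placed 10 probes at 1.2 or more within 2184 bp at chr6:122366504-122368687, separated by probes that fell below 1.2. Joining runs within 2000 bp leaves 227 loci of 229 runs. Pdpn and Ppt2 were named by 2 runs each, farther apart.

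Among the signalling genes, the factor's own gene had a run. At Tcf7l1 the probes read 1.92, 3.45, 2.13 and 1.89 at chr6:72805248-72805970, a mean of 2.35 ± 0.74 (SD over 4 probes). Wnt5a, a Wnt ligand, had the only other run of the Wnt list (2 of 63 genes), with 1.43, 1.37 and 1.33 on a dim input of 145. Its 3 values lie just above the limit. Of the Nodal and BMP list, 3 of 32 genes had a run. Nodal, the ligand, read 2.93, 1.77 and 1.87, and Lefty2, its secreted inhibitor, read 1.26, 2.79, 2.76 and 2.10. Id1, an inhibitor of bHLH factors that BMP induces, read 2.45, 1.92 and 1.66. The ligand and its inhibitor had mean x of 2.19 on array 2 and 2.23 on array 1. Each array was centred on its own median, so these values are not a like comparison.

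Of the Fgf list, 3 of 26 genes had a run. Fgf4, the ligand that primes stem cells to differentiate, read 2.17, 2.38 and 2.12 at chr7:141283099-141283364, the flattest of these profiles with an SD of 0.14. Fgfr2, a receptor, had 6 probes at 1.32, 1.31, 2.67, 3.16, 2.41 and 1.87. Spred1, an inhibitor of Ras signalling to Raf, had 1.46, 1.98 and 1.43. The order of mean x was therefore ligand (2.22), receptor (2.12) and inhibitor (1.62), with the first 2 closer together than the scatter among the Fgfr2 probes (SD 0.75).

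Neural regulators had runs at 5 of 35 genes. Pax6, an eye and forebrain regulator, had the longest run by probe number, 8 probes at 2.02, 2.96, 2.87, 2.08, 2.57, 1.56, 1.56 and 1.46 over 1533 bp at chr2:105528160-105529692. It has a broad shoulder that steps down after the fifth probe. Lmx1b, a LIM homeobox gene, read 1.67, 2.36, 2.56 and 2.16 with 1 left-out spot inside. The run assigned to both Zic5 and Zic2, zinc finger genes of neural fate, read 2.01, 2.39 and 1.42, and that of Neurod1, a proneural bHLH gene, 1.81, 2.29 and 1.60. Of 30 mesoderm genes 2 had a run, Evx1, a primitive streak homeobox gene (mean x 1.99), and Kdr, a receptor of VEGF (probes at 1.47, 1.61 and 1.42). Of 26 endoderm and trophectoderm genes the only one was Lama1, a laminin chain (1.52).

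None of the 33 Hox genes and none of the 26 housekeeping and terminal tissue genes that could have had a run was named by one. At the background share of 1.58%, lists of 33 and 26 genes are too small for the lack of a run to show a difference. The medians of the highest means over 3 probes were 0.98 for the Hox genes and 0.78 for the housekeeping and terminal tissue genes. Both were above the 0.59 of all genes. A highest mean can rise with the number of measured probes of a gene, which was not compared. These medians therefore do not give the level of x of the lists. On the cell cycle list, Mycn and Trp53, the tumour suppressor, were 2 of 23 genes (Trp53 read 1.58, 1.55 and 2.77). On the chromatin list, Phc1 and Trim28 were 2 of 34. Phc1, Trim28, Mycn and Fgf4 are also counted on the pluripotency list, so the counts of the lists are not separate. The counts of all lists stand beside the same background of 1.58%.

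**Figure D4:**
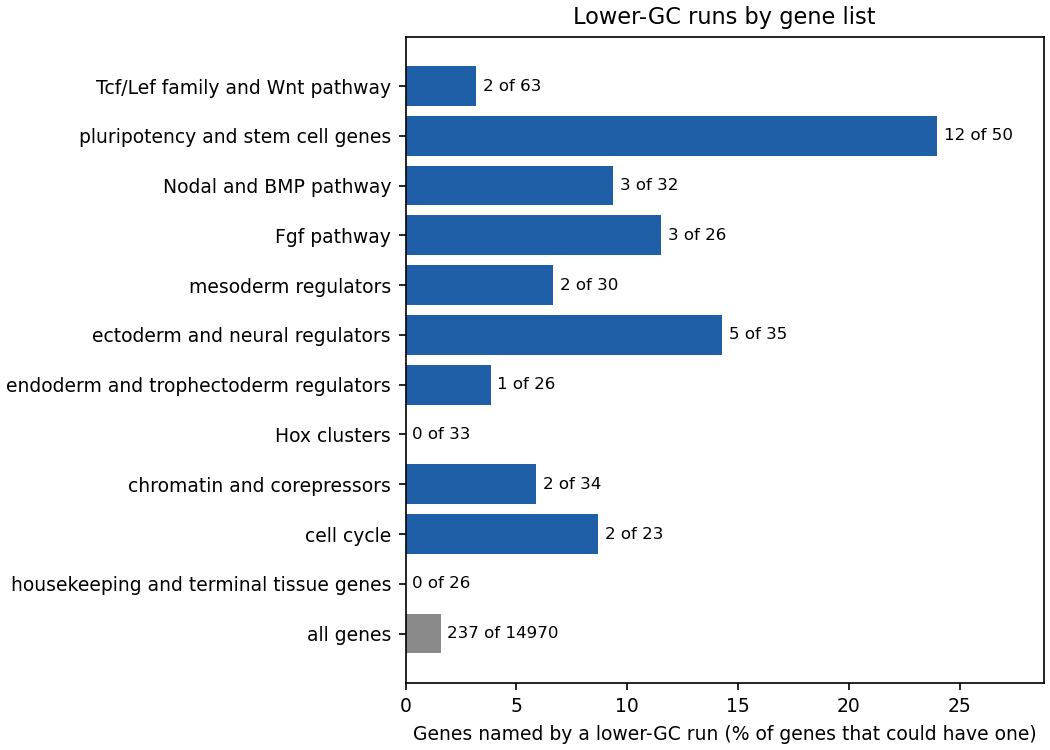
Share of the genes of each list that are named by a lower-GC run, in percent of the genes that have at least 3 neighbouring measured lower-GC probes, with the counts beside each bar. The pluripotency and stem cell list has 12 of 50 and all genes together 237 of 14970. The lists were written with earlier results known, and some genes are on several lists.

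The rule reads the letters of the probes only as G+C. Whether x itself, which chose the runs, varies with the letters in other ways than it did with G+C was not tested. Each run was searched in its 3 consecutive probes of highest mean x, on both strands, and compared with all 59370 other stretches of 3 neighbouring measured probes under 50% G+C. The median number of letters searched was 165 in runs and 158 in the other stretches, and the median of their mean G+C was 40.5% and 43.5%. Shares are given with 95% Wilson intervals, which cover counting error only. The core Tcf/Lef string CTTTGAT was in 9 runs (3.93%, interval 2.08 to 7.30) and in 3.12% of the other stretches (2.98 to 3.26). These intervals overlap, so no difference in CTTTGAT was detectable with 229 runs. The same letters in 2 other orders, TAGTTTC and CTGTATT, were in 4.37% and 2.18% of runs and in 2.36% and 2.93% of the other stretches.

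The octamer piece ATGCAAA was in 20 runs (8.73%, interval 5.72 to 13.1) and in 3.24% of the other stretches (3.10 to 3.38). The whole octamer ATTTGCAT, counted after this share had been seen and contained in it, was in 3.49% of runs and 0.962% of the other stretches. On array 1 the ATGCAAA shares were 7.14% and 3.30%, and on array 2 13.1% and 3.12%. Within G+C bands they were 11.2% and 4.33% under 40%, 7.89% and 3.51% from 40 to 45%, and 5.45% and 2.33% from 45 to 50%. The share in runs was higher in both arrays and in each band, though in the upper 2 bands the intervals of the runs (3.67 to 16.2 and 1.87 to 14.9) overlap those of the other stretches (3.30 to 3.74 and 2.13 to 2.54). In GC-rich runs it was 0.761%.

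**Figure D5:**
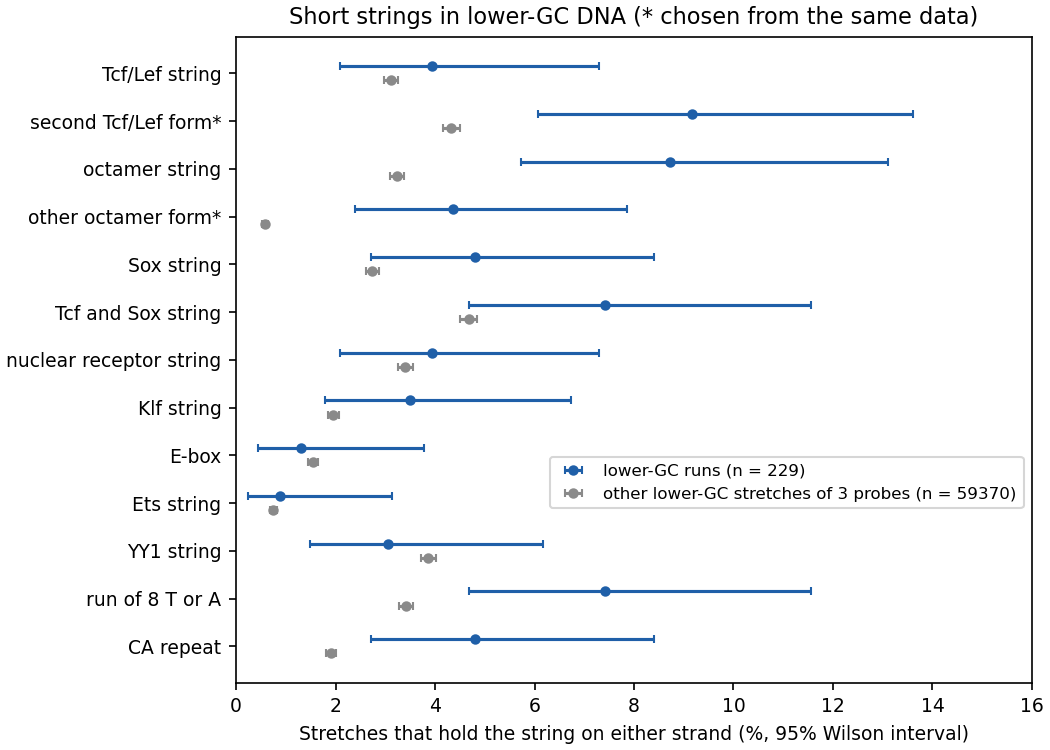
Share of stretches that hold each string on either strand, in percent with 95% Wilson intervals, in 229 lower-GC runs and 59370 other lower-GC stretches of 3 probes. The octamer piece is at 8.73% against 3.24%, and the Tcf/Lef string CTTTGAT at 3.93% against 3.12%; strings with an asterisk were chosen from the same data.

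All 7-letter strings were then ranked by the ratio of their share in runs to that in the other stretches. Of the 407 strings present in at least 5% of the runs, the highest were CATGCAA (3.26 times), ACACTAC (3.25), ATTAGCA (3.20), ATTACAA (2.97) and TTAAAAA (2.86). AATGCAA (2.79), CAGTTAA (2.77), ACCACAC (2.76), ATGCTAA (2.74) and CATTACA (2.72) completed the first 10, with ATGCAAA at rank 11 (2.70). CATGCAA and AATGCAA overlap the octamer piece, and ATTAGCA and ATGCTAA are both pieces of ATTAGCAT. The median ratio of the 407 strings was 1.68, and a string had to be frequent in the runs to be listed. CTTTGAT was not among them, with a ratio of 1.26.

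ATTAGCAT was counted because of this ranking, on the same runs, so its share is a description. It was in 10 runs (4.37%, interval 2.39 to 7.85) and in 0.581% of the other stretches. ATGCAAA or ATTAGCAT was in 30 runs (13.1%, interval 9.33 to 18.1) and in 3.80% of the other stretches, with no run counted for both. Of the 10 runs with ATTAGCAT, 9 were among the 115 runs of higher mean x, whereas ATGCAAA was in 11 of these 115 and in 9 of the other 114. CTTTGAA, likewise counted after the ranking, was in 21 runs (9.17%, interval 6.08 to 13.6) and in 4.33% of the other stretches. In the ranking CTTTGAA stood only at rank 69 of the 407 strings, with a ratio of 2.12 beside their median of 1.68. Its shares were 8.33% and 4.602% on array 1 and 11.5% and 3.80% on array 2. Within G+C bands they were 11.2% and 5.67% under 40%, 6.58% (interval 2.84 to 14.5) and 4.62% from 40 to 45%, and 9.09% and 3.26% from 45 to 50%. At least 1 of the strings that open with CTTTG and end in 2 letters that are each A or T was in 56 runs (24.5%, interval 19.3 to 30.4) and 14.7% of the other stretches. Of these strings, CTTTGTT and CTTTGTA had ratios of 1.59 and 1.64, below the median of the 407 ranked strings.

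The runs with an octamer form are shown by the probes that carry it, as examples chosen after the strings had been counted. Capitals mark ATGCAAA with the last octamer letter where present, or ATTAGCAT.
Reep3: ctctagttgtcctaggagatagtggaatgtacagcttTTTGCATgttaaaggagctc
Map10: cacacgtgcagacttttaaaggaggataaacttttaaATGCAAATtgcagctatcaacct
Slc9a2: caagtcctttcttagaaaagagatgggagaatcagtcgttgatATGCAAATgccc
Kit, probe 2: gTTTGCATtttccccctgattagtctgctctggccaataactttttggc
Kit, probe 3: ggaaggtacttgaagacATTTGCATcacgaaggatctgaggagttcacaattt
Pou2f3: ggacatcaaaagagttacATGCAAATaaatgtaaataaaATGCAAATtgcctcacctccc
Sez6: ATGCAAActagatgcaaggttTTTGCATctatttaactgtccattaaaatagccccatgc
Mycn: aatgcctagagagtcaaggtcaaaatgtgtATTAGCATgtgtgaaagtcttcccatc
Lrpap1: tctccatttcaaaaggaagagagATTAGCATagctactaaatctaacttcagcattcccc
Ddx58: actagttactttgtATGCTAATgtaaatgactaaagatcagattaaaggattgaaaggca
Reep3, which codes for a protein that shapes the endoplasmic reticulum, read 2.44, 3.44, 3.24, 1.79, 2.83 and 1.90, and the octamer piece lies in its highest probe. At Pou2f3, itself a gene of an octamer-binding factor, the highest probe holds 2 whole octamers and read 2.99, beside 1.46, 1.79 and 1.22. At Kit, the receptor of stem cell factor, neighbouring probes with 1 match each read 2.54 and 2.35, and the probes on either side read 1.42 and 1.76. In these 3 runs the probes with the letters were at or next to the summit. At Sez6, a neuronal membrane protein, 3 matches lie in probes of only 1.36 and 1.70. The probes shown for Mycn, Lrpap1 (a chaperone of LDL receptors) and Ddx58 (the RNA sensor RIG-I) read 3.12, 3.07 and 3.10.

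Within runs, ATGCAAA was in 12 of 229 highest probes (5.24%, interval 3.02 to 8.93) and in 13 of 518 other run probes (2.51%). It was in 5 of 693 measured probes within 2 positions on either side of a run (0.722%) and in 1.199% of all other lower-GC probes. ATTAGCAT was in 4 highest probes and 6 other run probes, and in 0 of the 693 flanking probes (which allows up to 0.551%), against 0.217% of all other lower-GC probes. CTTTGAA was in 3.93%, 2.32%, 0.866% and 1.59% of the same 4 sets, and CTTTGAT in 2.18%, 0.772%, 0.866% and 1.13%. These shares are a description, since ATTAGCAT and CTTTGAA were chosen on the same run probes and the highest probes are sorted by the x that chose the runs. The median G+C was 39.0% in the highest probes and 41.8% in the flanking ones. In stretches outside the runs, ATGCAAA was in 3.18%, 3.38% and 4.37% of those with 0, 1 and 2 probes at 1.2 or more.

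Runs with a Tcf/Lef string are shown by the probe that carries it, chosen in the same way. Capitals mark CTTTGAT or CTTTGAA on either strand.
Ddah1: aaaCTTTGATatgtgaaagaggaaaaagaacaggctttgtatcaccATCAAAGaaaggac
Slc25a28: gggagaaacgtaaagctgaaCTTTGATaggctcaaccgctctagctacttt
Tdrd3: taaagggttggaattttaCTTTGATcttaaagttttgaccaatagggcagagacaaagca
Foxp2: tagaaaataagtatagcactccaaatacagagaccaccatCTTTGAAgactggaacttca
Tbl1xr1: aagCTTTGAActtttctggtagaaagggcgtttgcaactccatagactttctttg
Pef1: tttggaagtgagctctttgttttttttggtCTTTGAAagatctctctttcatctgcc
Ddah1, an enzyme that breaks down methylated arginine, was the only run with 2 matches of CTTTGAT, both in a probe of 2.21 between probes of 1.55 and 2.27. Pdpn, which codes for podoplanin, a surface glycoprotein, had CTTTGAT in the highest of its probes at 3.13, 3.28, 1.86 and 1.85. At Slc25a28, a mitochondrial iron carrier, the string was in the second probe of 3.04, 2.60 and 1.21. A run with no gene name, at chr6:41049221-41049518, read 2.59, 1.57 and 2.57, with CTTTGAT in the last probe. Foxp2, a forkhead factor, Tbl1xr1, a subunit of corepressor complexes, and Pef1, a calcium-binding protein, held CTTTGAA in their highest probes, at 3.41, 2.98 and 2.90.

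Most of the remaining strings gave smaller differences or few matches. CTTTGTT, the letters shared by Tcf and Sox sites, was in 7.42% of runs (interval 4.69 to 11.6) and 4.67% of the other stretches, and the Sox string CATTGTT in 4.803% and 2.74%. The Klf string GGGTGTG was in 3.49% and 1.95%, the nuclear receptor string AAGGTCA in 3.93% and 3.40%, the E-box CACGTG in 1.31% and 1.55%, the Ets string CCGGAAG in 0.873% and 0.751% and the YY1 string AAGATGG in 3.06% and 3.86%. The intervals of runs and other stretches overlapped for each of these. Among simple repeats, TTTTTTTT was in 7.42% (interval 4.69 to 11.6) and 3.41%, and ACACACAC in 4.803% (2.70 to 8.40) and 1.91%, while GAGAGAGA was in 1.75% and 1.71%. Under 40% G+C these repeats differed less, with TTTTTTTT in 8.16% of runs (4.19 to 15.3) and 6.97% of the other stretches and ACACACAC in 3.06% (1.05 to 8.62) and 2.87%. From 40 to 45% ACACACAC was in 7.89% of runs (3.67 to 16.2) and 1.92% of the other stretches, and TTTTTTTT in 6.58% (2.84 to 14.5) and 3.34%. From 45 to 50% TTTTTTTT was in 7.27% (2.86 to 17.3) and 1.64%, and ACACACAC in 3.64% (1.00 to 12.3) and 1.38%. On array 1 TTTTTTTT was in 8.93% (5.49 to 14.2) and 3.55%, and on array 2 in 3.28% and 3.15%. A difference in either repeat was thus not detectable under 40% G+C, nor one in TTTTTTTT on array 2. CGGCGGC, in 17.9% of GC-rich runs, was in 3 lower-GC runs (1.31%) and 0.0741% of the other stretches, and the GC box GGGCGGG was in 0 of 229, which allows up to 1.65% by the same kind of interval.

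Few runs matched a RefSeq promoter window. In 18 of the 229 (7.86%, interval 5.03 to 12.1) at least one of the 3 probes lay whole in a RefSeq promoter window, 250 bases before to 50 after a gene's start in GRCm38.p6, matched by its letters. The share was 9.44% of the other lower-GC stretches and 41.1% of the GC-rich runs. The run at N4bp2, a protein with a DNA nicking domain, reached such a window. Its 7 probes read 1.61, 2.18, 2.65, 3.39, 1.87, 3.56 and 2.18 and held 30.0%, 36.7%, 38.3%, 40.4%, 41.2%, 75.6% and 80.0% G+C, so that a run called lower-GC by its mean of 48.9% ended in GC-rich promoter DNA. The window, at chr5:65763271-65763570 on the plus strand of GRCm38.p6, is printed with the last 2 probes in capitals.
N4bp2: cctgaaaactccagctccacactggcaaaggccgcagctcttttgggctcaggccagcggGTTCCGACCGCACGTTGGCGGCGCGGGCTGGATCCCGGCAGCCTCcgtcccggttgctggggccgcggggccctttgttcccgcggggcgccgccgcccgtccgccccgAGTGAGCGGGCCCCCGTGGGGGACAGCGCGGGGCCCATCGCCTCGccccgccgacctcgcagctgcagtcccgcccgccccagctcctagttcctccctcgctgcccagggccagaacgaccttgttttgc
The capitals start 190 and 81 bases before the RefSeq start, and the window holds 73.7% G+C.

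A group of runs rested on broken rows of probes. In 73 of the 229 (31.9%) at least 1 spot with a substituted signal lay between the first and last probe, compared with 3.93% of GC-rich runs. These 73 spanned a median of 890 bp, and the other 156 a median of 415 bp. Their mean G+C had a median of 37.9%, against 41.5%. ATGCAAA was in 17 of the 156 unbroken runs (10.9%) and in 3 of the 73 broken ones (4.11%, interval 1.41 to 11.4), and CTTTGAT in 9 and 0. CTTTGAA was in 14 (8.97%) and 7 (9.59%). All 12 genes of the pluripotency list keep a run when the broken ones are left out. Of the lower-GC probes below 35% G+C, 21.9% on array 1 and 31.9% on array 2 reached 1.2, compared with 6.54% and 5.11% from 40 to 45%. The part of this trend in the broken runs was not tested.

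Olfactory receptor genes, known for their role in the sensory cells of the nose, lie in AT-rich clusters. They were named by 16 runs, 17 of 434 such genes (3.92%, beside the 1.58% of all genes). On array 1, where 14 of the 16 runs lay, the share of all genes was 2.13%. Left-out spots lay in 13 of the 16 runs. Their median G+C was 36.0%, and the median input signal of single runs went from 132.5 at Olfr1209 to 584.9 at Olfr366. Among 39 vomeronasal receptor genes none had a run, and 1 of 27 taste receptor genes had one. Both sets are too small for these counts to be told from the 1.58% of all genes. Of 179 microRNA genes 4 had a run (2.23%). All 4 runs lay on array 1, where the share of all genes was 2.13%, and 3 of them held left-out spots. The run of Mir302a, the stem cell microRNA that lies inside Larp7, was unbroken, with probes at 2.00, 1.87 and 1.48.

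The limits of the rule leave near neighbours on both sides. Pgghg (49.99% G+C) and Igfn1 (49.84%) were the members closest to 50%, and runs at Adamts1 (50.06%) and Ing3 (50.12%) were just outside. Megf9 and Adap1 entered with a lowest probe of 1.2003 and 1.2009. Stretches at Olfr70 and Lin28a, an RNA-binding stem cell gene, were left out with a lowest probe of 1.196 and 1.193. With normexp background correction instead of the processed signals, 96 runs were found and 95 of the 229 kept at least 3 of their probes in a run, and 10 genes of the pluripotency list had one. With substituted signals kept, 3082 runs were found, and 144 of the 229 kept at least 3 of their probes in a run. Which runs are members thus depends on the background correction and on the treatment of dim spots.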

How the data were processed

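Chromatin immunoprecipitate (Cy5) and input (Cy3) of E14 cells were compared on 2 arrays, 1 per sample. The authors' scanner software (Agilent Feature Extraction, version 9.1.1.1) gave each spot a background-subtracted and linearly dye-normalized intensity per channel, with a substitute where nothing rose above background, as the file headers state. A log10 ratio deposited beside these served only as an alternative. To obtain x, the log2 ratio of Cy5 to Cy3 intensity was lowered by the median over measured autosomal spots (-0.28 on array 1 and -0.23 on array 2 before centring). Log ratios were not fitted with loess or quantile methods. The aligner and genome build behind the array coordinates were not given in any source used here. Genes are those of the array annotation. Of the names in runs, 194 were current RefSeq symbols, 43 older symbols and 7 not matched, and 2 runs had no name.

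Named runs are the 15 of highest mean x, the 4 highest of each of 11 gene lists, the 5 with most probes, the 5 with most CTTTGAT and those nearest the limits. Other runs named were chosen after their values were seen. The members and lists were chosen with earlier results of these data known. Letters were counted as exact matches. The run finder was tested on simulated data with planted runs. Python 3.11.15, numpy 2.4.6, pandas 2.3.3, statsmodels 0.14.6 and limma 3.58.1 were used. Alternatives changed the limits, the signals, the trends subtracted and the spots kept. No p-value was computed, because each stretch was measured once. Calls by the authors' neighbourhood model were not used here. The number of arrays limits the precision. A run that the naming rule selects is not reported here.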

Additional observations from a re-analysis of the deposited data

Results flagged for a closer look

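The X chromosome was left out by the rule, and its probes were examined with the same limits and the array 2 median. They held 18 lower-GC runs, in data that the comparisons above do not use and with no control sample to set them against. Of the 237185 probes of array 2, 219593 were autosomal, and these gave 61 lower-GC runs. The X runs came from a smaller set of probes, and no share of measured X probes or of X stretches in runs is given here. The counts of X and autosomal runs can therefore not be compared. The highest were at Tfe3, a bHLH factor that holds stem cells in the naive state (mean x 2.94, mean G+C 43.8%), Rbbp7, a histone-binding chromatin subunit (2.79), and Gpc4, a glypican co-receptor (2.30, with another run of 2.07). Nr0b1, which codes for the stem cell factor Dax1, had a run of 1.95, and Porcn, the enzyme that lipidates Wnt ligands, had one of 1.95.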

How the results depend on the processing

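How many runs there were depended on the limits and on the background treatment, and the shares of strings within the runs less so. The shares in the other stretches were not recomputed, so the contrast between runs and other stretches was not examined under the alternatives. A minimum x of 1.0 gave 387 runs that named 399 genes, and one of 1.5 gave 91 runs and 93 genes. Requiring 4 or more probes gave 41 runs and 44 genes, of which 3 were on the pluripotency list. Keeping spots with substituted signals gave 3082 runs and 2142 genes, and normexp background correction 96 runs and 101 genes. The other 9 alternatives chosen at the outset, and runs with no left-out spot inside (156, added after the data were seen), stayed within 1.5 times the 229 runs. Subtracting a G+C trend gave 298 runs, of which 193 of the 229 kept 3 probes, and subtracting an intensity trend 174, with 129 kept. The cause was not tested. Over all 15 alternatives the share of runs with CTTTGAT went from 2.44% to 5.77%, that with ATGCAAA from 6.23% to 12.2% and that with CTTTGAA from 7.01% to 11.5%. Of the mean x of the 43 named runs, 7 moved by more than the SD of their probes when an intensity trend was subtracted (median shift -0.46), 6 under normexp (-0.25), 3 under the G+C trend (0.11), 1 with signals before dye normalization and 1 with substituted signals kept. No paired analysis was possible because the arrays carry different probes. Signals near background limit which lower-GC probes could be measured at all.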
